A study of Drosophila melanogaster with 47 samples.

Results

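*CG17005* and *lncRNA:CR45456* are adjacent loci on chromosome arm 2L of *Drosophila melanogaster*. Both RNAs were highest near midday and lowest late at night in fly heads, in the control strain *yw* and in each of 4 strains with a deletion at the clock gene *timeless* (*tim*). They are 2 of the 17137 genes in the count table and were chosen by the strength of their rhythm in *yw*, where they ranked 1 and 4 by the p-value of a 24 h rhythm among the 11027 genes tested. Their rhythm in *yw*, and every difference in rhythm, phase or single time points between *yw* and another strain, is therefore described with no test. The tests below concern the deletion strains, whose libraries did not enter the ranking in *yw*, the level averaged over the day, and the ratio of both RNAs. Earlier results of these data were known when the pair and the tests were chosen.

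Polyadenylated head RNA was sequenced from flies of both sexes kept for 4 days at 25 °C in cycles of 12 h light and 12 h dark, and taken every 4 h from ZT2 to ZT22 (ZT, hours after lights on). The 47 libraries came from *yw* (11 libraries), *tim_in24* (6), *tim_up10* (6), *tim_up122* (12), and *tim_up126* (12). *yw* is the control with an intact *tim*. *tim_in24* lacks a stretch with an E-box, the site that CLK and CYC bind, in an intron of *tim*, and *tim_up10*, *tim_up122*, and *tim_up126* lack one with an E-box upstream of the gene. The number in each name is the length of the deletion in bp. The deletions were made with CRISPR-Cas9 and are homozygous, so they are present in every cell, and an E-box formed by chance next to the *tim_up126* deletion. *yw* (except at ZT18), *tim_up122*, and *tim_up126* had 2 libraries per time point, which the labels call independent biological replicates, and *tim_in24* and *tim_up10* had 1. The age of the flies is not given in the sources used here.

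The fly clock is a feedback loop: the factors CLK and CYC activate *per* and *tim*, whose proteins later enter the nucleus and repress CLK and CYC, and light degrades TIM through the photoreceptor CRY. Long non-coding RNAs (lncRNAs) are transcripts with no known protein product, and some are made next to a protein-coding gene. *CG17005* is annotated as protein-coding and carries only its annotation number as a name, and no function is assigned here to either locus.

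In the dm6 assembly, with Ensembl gene models, *lncRNA:CR45456* (FBgn0267012) lies at 2L from 9325845 to 9326721 on the plus strand, as 1 exon of 877 bp. *CG17005* (FBgn0032109) follows at 9327744 to 9330332 on the same strand, with 4 annotated transcripts, 5 exonic blocks, and 2234 exonic bp. The longest coding sequence of *CG17005* has 608 codons, in 2 of the 4 transcripts. The gap between the pair is 1022 bp, and their starts are 1899 bp apart. A further lncRNA, *lncRNA:CR45457* (FBgn0267013), lies within that gap at 9327039 to 9327553, also on the plus strand. No annotated exon of another gene overlaps either member. The library kit does not mark strand, so reads from a transcript that ran past its annotated end into the next locus cannot be told apart from that locus's own. *tim* is on the same arm, with 5.82 Mb between it and the pair, and whole second chromosomes carrying the deletions were made homozygous. An effect of a deletion and one of another sequence difference on that chromosome therefore cannot be told apart.

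Library totals ranged from 1761896 to 10230355 counts, so 1 count equalled 0.0932 to 0.571 CPM (counts scaled to a library of 1000000). All 17 pairs of replicates differed by more than sampling noise (chi-square per degree of freedom from 5.06 to 11.9). The libraries labelled *yw* ZT22 differed at *tim*, with 1534 CPM in replicate 1 and 448 CPM in replicate 2, and results that rest on them are given with and without each. Markers of photoreceptors, glia, neurons, fat body, both sexes, and an immune response were detected in all 5 strains. The summed level of 4 immune genes had a median of 250 CPM in *yw* (range 172 to 926) and medians of 33.7 to 61.0 CPM in the deletion strains, whose ranges together ran from 20.8 to 567 and overlapped that of *yw* except in *tim_up126* (20.8 to 102). The summed level of 5 photoreceptor genes was higher in every *tim_in24* library (37223 to 42092 CPM) than in any of *yw* (28875 to 37106), and that of 4 fat body genes was higher in every *tim_up10* library (9810 to 12957 CPM) than in any of *yw* (4255 to 8429). In the other lists and strains the ranges overlapped that of *yw*. Single genes could still differ in level over the day (edgeR). In *tim_up122* the glial genes *repo*, *Gs2*, and *alrm* were lower (log2 -0.30, -0.34, and -0.29, adjusted p at most 0.0217), and *moody* was higher (0.13, adjusted p = 0.0357). All 4 immune genes were lower in *tim_in24*, *tim_up122*, and *tim_up126* (adjusted p at most 0.0183). Of the fat body genes in *tim_up10*, *Fbp1* went the other way (-0.57, adjusted p = 0.767). For each of the 7 marker lists the ranges at ZT6 and ZT22 overlapped over the 8 libraries at each time. The part of these lists in the results was not tested. In whole heads, fewer cells expressing a gene and less of its RNA per cell cannot be told apart.

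In *yw*, *CG17005* had 31.0 and 32.4 CPM at ZT2, 81.6 and 60.9 at ZT6, 48.6 and 49.6 at ZT10, 13.2 and 13.5 at ZT14, 8.75 at ZT18, and 10.3 and 7.27 at ZT22. *lncRNA:CR45456* had 7.61 and 8.13 CPM at ZT2, 27.8 and 18.9 at ZT6, 12.9 and 13.5 at ZT10, 3.74 and 3.41 at ZT14, 2.43 at ZT18, and 1.58 and 1.45 at ZT22. Both RNAs thus rose after lights on, peaked at ZT6, were still high at ZT10, and were low throughout the dark phase. The mean at ZT6 was 71.3 ± 14.7 CPM for *CG17005* and 23.4 ± 6.34 CPM for *lncRNA:CR45456* (SD, n = 2). Expressed per kb of exon, the highest level was 36.5 CPM per kb for *CG17005* and 31.7 CPM per kb for *lncRNA:CR45456*, and the medians over the day were 13.9 and 8.68.

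The ratio of the ZT6 to the ZT22 mean in *yw* was 8.09 for *CG17005* and 15.4 for *lncRNA:CR45456*. It was 9.81 and 16.1 without *yw* ZT22 replicate 1, and 6.89 and 14.7 without replicate 2. A 24 h cosine fitted to log2 CPM gave *CG17005* an amplitude (the distance from the daily mean to the peak of the fit) of 1.70 (SE 0.11) and a peak at ZT6.80 (SE 0.22 h). For *lncRNA:CR45456* the amplitude was 1.86 (SE 0.16) and the peak ZT7.07 (SE 0.30 h). Without *yw* ZT22 replicate 1 or replicate 2 the amplitudes were 1.72 and 1.62 for *CG17005*, and 1.80 and 1.78 for *lncRNA:CR45456*. By amplitude, the pair stood at 48 and 40 of the genes tested in *yw*, whose median amplitude was 0.14.

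In *tim_up126* the levels again fell in the order ZT6, ZT10, ZT2, and ZT14, with the lowest values at ZT18 and ZT22. *CG17005* had 55.9 and 59.3 CPM at ZT2, 138 and 152 at ZT6, 79.8 and 69.7 at ZT10, 10.7 and 7.87 at ZT14, 3.75 and 4.39 at ZT18, and 4.00 and 2.28 at ZT22. *lncRNA:CR45456* had 10.5 and 15.1 CPM at ZT2, 47.8 and 60.8 at ZT6, 25.1 and 27.8 at ZT10, 2.86 and 4.34 at ZT14, 0.750 and 1.56 at ZT18, and 1.33 and 0.571 at ZT22. All libraries of the light phase were above all of the dark phase for both RNAs. The replicates of *lncRNA:CR45456* at ZT18 and ZT22 differed most in proportion, and the poorest library there held 1 count.

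In *tim_up122*, *CG17005* had 57.5 and 47.5 CPM at ZT2, 110.1 and 77.5 at ZT6, 65.7 and 77.3 at ZT10, 7.69 and 14.02 at ZT14, 4.73 and 3.74 at ZT18, and 3.01 and 2.04 at ZT22. *lncRNA:CR45456* had 15.3 and 13.9 CPM at ZT2, 43.5 and 31.9 at ZT6, 28.9 and 34.1 at ZT10, 6.41 and 2.404 at ZT14, 0.887 and 1.20 at ZT18, and 0.430 and 0.679 at ZT22. Both RNAs were again low by ZT14 and lowest at ZT22. At ZT14 the replicates went opposite ways, with *CG17005* lower and *lncRNA:CR45456* higher in replicate 1 than in replicate 2.

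The strains with 1 library per time point had the same shape. *CG17005* had 45.0, 114, 86.5, 14.5, 6.06, and 3.16 CPM from ZT2 to ZT22 in *tim_in24*, and 48.6, 125, 61.9, 8.54, 5.53, and 4.94 CPM in *tim_up10*. *lncRNA:CR45456* had 11.1, 42.9, 36.7, 5.86, 2.27, and 0.949 CPM in *tim_in24*, and 13.9, 41.5, 23.4, 5.08, 1.51, and 1.30 CPM in *tim_up10*. In *tim_in24* both RNAs stayed closer to the ZT6 level at ZT10 (75.7% and 85.5% of it) than in *tim_up10* (49.5% and 56.4%), a difference with no replicate. The time points ZT2, ZT6, and ZT10 together held 83.1% of the summed daily level of *CG17005* in *yw*, 91.2% in *tim_in24*, 92.5% in *tim_up10*, 92.5% in *tim_up122*, and 94.4% in *tim_up126*. For *lncRNA:CR45456* these shares were 85.5%, 90.9%, 90.9%, 93.3%, and 94.2%.

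**Figure D1:**
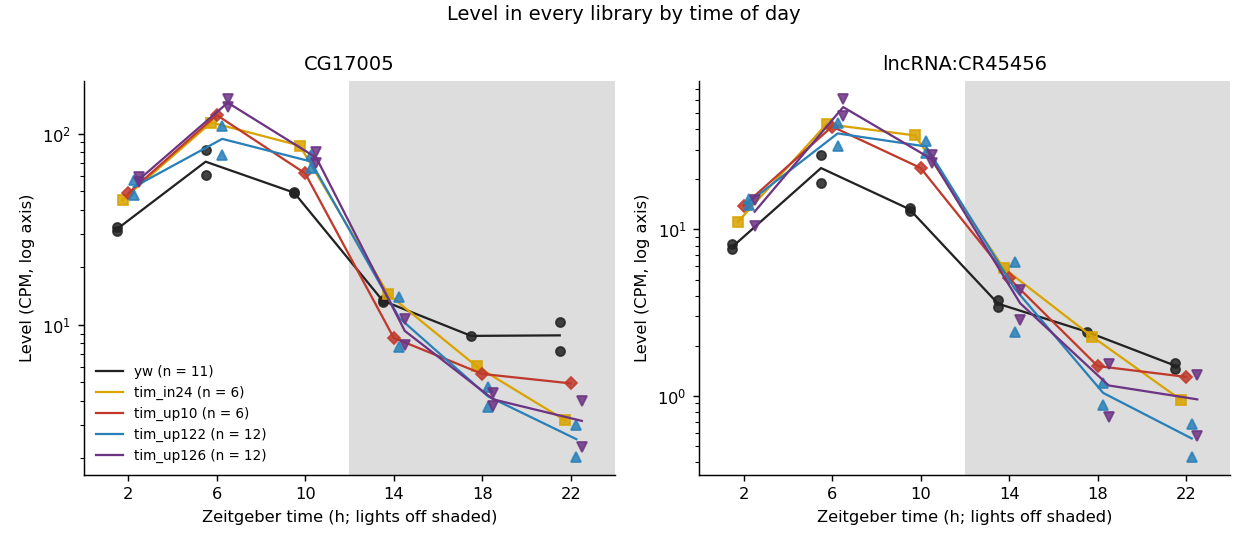
Level (CPM, log axis) of *CG17005* (left) and *lncRNA:CR45456* (right) in each of the 47 libraries by Zeitgeber time (h), with points shifted sideways by strain, lines through the means, and the dark phase shaded. Both RNAs peak at ZT6 in all 5 strains, and at ZT18 and ZT22 the 6 deletion libraries lie below the *yw* libraries.

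In each of the 5 strains, every light-phase library (ZT2, ZT6, and ZT10) was above every dark-phase library for both RNAs. Among all genes tested such a separation was found for 2.76% in *yw*, 6.38% in *tim_in24*, 7.08% in *tim_up10*, 1.45% in *tim_up122*, and 1.24% in *tim_up126*. The narrowest gap in CPM for *CG17005* was in *yw*, between 31.0 CPM in the light and 13.5 CPM in the dark, and that for *lncRNA:CR45456* was also in *yw*, between 7.61 and 3.74 CPM.

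To ask whether the pair had a 24 h rhythm in the deletion strains, a cosine and a sine were fitted within each in edgeR (quasi-likelihood F test). The p-values were adjusted by the Benjamini-Hochberg method over all 11027 genes. Both RNAs were rhythmic in all 4 strains. All flies were kept in cycles of light and dark, so a rhythm driven by light and one driven by the clock cannot be told apart. The share of genes called was 1.14% in *tim_in24*, 2.44% in *tim_up10*, 7.29% in *tim_up122*, and 6% in *tim_up126*, and 15.6% in *yw*. In *tim_up126* the adjusted p was 1.13e-09 for *CG17005* and 6.63e-10 for *lncRNA:CR45456*. In *tim_up122* it was 4.39e-06 and 1.36e-06, in *tim_up10* 1.70e-06 and 6.08e-06, and in *tim_in24* 0.000152 and 8.41e-05. In all, 58 genes were called in all 4 deletion strains, and 55 of these also in *yw*. The calls of the pair held under every alternative setting and with any single library left out, where the highest adjusted p was 0.000969.

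The amplitude of *CG17005* was 2.57 (SE 0.36) in *tim_in24*, 2.49 (SE 0.29) in *tim_up10*, 2.69 (SE 0.28) in *tim_up122*, and 2.90 (SE 0.23) in *tim_up126*. That of *lncRNA:CR45456* was 2.55 (SE 0.30), 2.46 (SE 0.21), 2.89 (SE 0.25), and 2.85 (SE 0.19) in the same order. All 8 values were above those of *yw* given earlier, which is a description since the *yw* rhythm chose the pair. Ranked by amplitude among the genes tested, *CG17005* and *lncRNA:CR45456* stood at 3 and 4 in *tim_in24*, 10 and 11 in *tim_up10*, 3 and 2 in *tim_up122*, and 2 and 3 in *tim_up126*. The median amplitude of all genes was 0.12 to 0.17 in these strains.

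The fitted peak of *CG17005* fell at ZT7.31 (SE 0.54 h) in *tim_in24*, ZT6.48 (SE 0.45 h) in *tim_up10*, ZT6.98 (SE 0.39 h) in *tim_up122*, and ZT6.71 (SE 0.30 h) in *tim_up126*. That of *lncRNA:CR45456* fell at ZT7.75 (SE 0.45 h), ZT7.11 (SE 0.33 h), ZT7.29 (SE 0.33 h), and ZT7.04 (SE 0.26 h). The lncRNA's fitted peak was later than that of *CG17005* in each strain, by 0.27 h in *yw*, 0.44 h in *tim_in24*, 0.62 h in *tim_up10*, 0.31 h in *tim_up122*, and 0.33 h in *tim_up126*. Each lag was well under the 4 h between time points and was not tested.

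**Figure D2:**
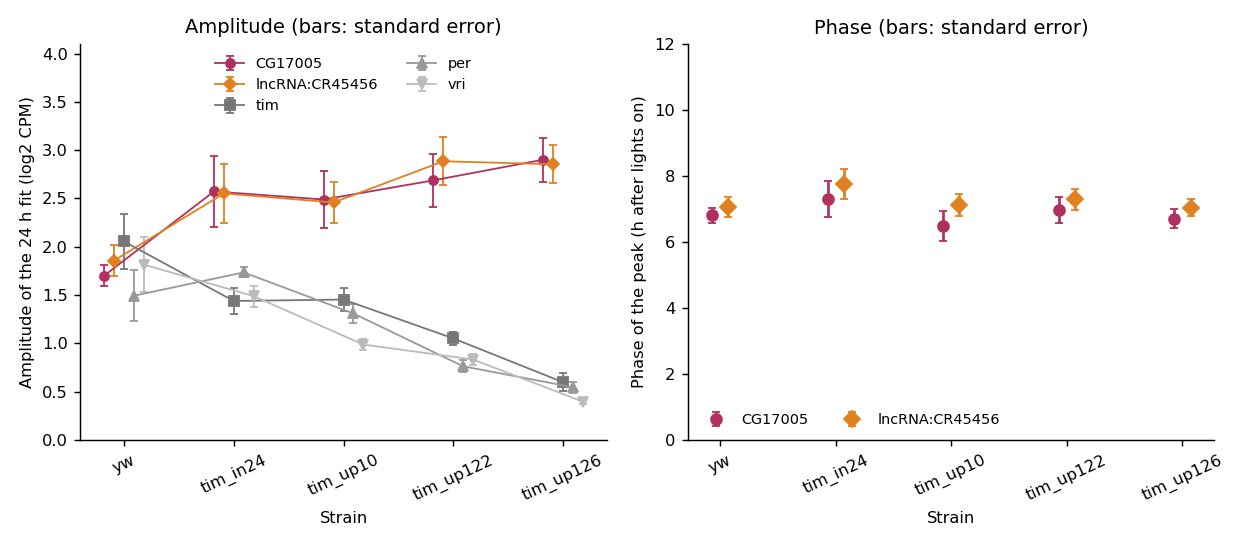
Amplitude (log2 CPM, left) and phase of the peak (h after lights on, right) of the 24 h fit in each strain, with bars showing the standard error of the fit. The amplitudes of *CG17005* and *lncRNA:CR45456* are 2.46 to 2.90 in the deletion strains. In the same strains those of the clock genes are 0.60 to 1.45 for *tim*, 0.55 to 1.73 for *per*, and 0.40 to 1.49 for *vri*, each lowest in *tim_up126*.

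The rise from trough to peak was tested in the strains with duplicates, with the time points set by *yw* (ZT22 and ZT6 by mean log2 CPM). In *tim_up126*, *CG17005* rose by a log2 value of 5.35 (SE 0.28, adjusted p = 2.87e-12, edgeR), or 40.8-fold, and *lncRNA:CR45456* by 5.55 (SE 0.38, adjusted p = 9.33e-10), or 46.97-fold. In *tim_up122* the rises were 5.21 (SE 0.27, adjusted p = 3.70e-12), or 37.0-fold, and 5.96 (SE 0.40, adjusted p = 5.48e-10), or 62.3-fold. A rise passed the test for 1.21% of genes in *tim_up126* and 2.02% in *tim_up122*. For *lncRNA:CR45456* both ZT22 libraries of a strain together held only 8 counts in *tim_up126* (exact Poisson 95% interval 3.45 to 15.8, counting error only) and 6 in *tim_up122* (2.20 to 13.1), so the size of its fold change is imprecise. Without *yw* ZT22 replicate 2 the lowest point of *CG17005* in *yw* would be ZT18.

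Rhythms were then compared between deletion strains, in 5 pairs and for both RNAs. An interaction of strain with the cosine and sine passed in 0 of 10 tests (edgeR, adjusted p from 0.598 to 1), with 1 unadjusted p under 0.05 (*lncRNA:CR45456* in *tim_up126* against *tim_in24*), and DESeq2 also called 0. Of all genes, 0.0272% were called between *tim_up126* and *tim_up122*, 0.263% between *tim_up126* and *tim_in24*, 0.127% between *tim_up126* and *tim_up10*, 0.0635% between *tim_up122* and *tim_in24*, and 0.00907% between *tim_up122* and *tim_up10*. By exact permutation of strain labels within time points (two-sided, adjusted over 10 tests each), differences in amplitude ran from -0.03 to 0.43 with a lowest adjusted p of 0.178. Differences in phase ran from -0.71 to 0.49 h with a lowest adjusted p of 0.281. Approximate 95% intervals, from a normal distribution, reached from -0.78 to 1.17 over the 10 amplitude differences and from -1.81 to 1.66 h over the phase differences. These limits are extremes over all comparisons. The intervals are too narrow where a strain had 1 library per time point. Differences within the interval of a comparison are compatible with the data.

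The largest amplitude difference of *CG17005* was 0.41, for *tim_up126* minus *tim_up10* (exact permutation p = 0.0178, adjusted p = 0.178), and it passed as 0.49 without *tim_up10* ZT14 (adjusted p = 0.0412). The peak of *CG17005* was 0.60 h earlier by fit in *tim_up126* than in *tim_in24* (exact permutation p = 0.0370, adjusted p = 0.281), a difference that passed as -0.86 h without *tim_up126* ZT22 replicate 2 (adjusted p = 0.0206). For *lncRNA:CR45456* the same comparison gave -0.71 h (adjusted p = 0.281) with all libraries and -0.90 h (adjusted p = 0.0309) without that library, which has the lowest total of the series.

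At single time points the deletion libraries lay on opposite sides of *yw* in light and dark, given here as a description. *CG17005* was above every *yw* library in 6 of 6 deletion libraries at ZT2, 5 of 6 at ZT6, and 6 of 6 at ZT10, and below every *yw* library in 6 of 6 at ZT18 and at ZT22. *lncRNA:CR45456* was above in 6 of 6 at ZT2, ZT6, and ZT10, and below in 6 of 6 at ZT18 and at ZT22. All 6 deletion libraries were above *yw* for 7.77% of genes at ZT2, 7.9% at ZT6, and 6.77% at ZT10, and below for 20.6% at ZT18, where *yw* has 1 library, and 8.19% at ZT22. At ZT14 the sides were mixed, with 2 deletion libraries above and 4 below *yw* for *CG17005*, and 4 above and 2 below for *lncRNA:CR45456*.

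In *tim_up126* the log2 difference of *CG17005* from *yw* was 1.03 at ZT6 and -1.40 at ZT22, and in *tim_up122* it was 0.39 and -1.66. For *lncRNA:CR45456* these differences were 1.22 and -0.57 in *tim_up126*, and 0.69 and -1.03 in *tim_up122*. In *tim_in24* they were 0.69 and -1.35 for *CG17005* and 0.89 and -0.51 for *lncRNA:CR45456*. In *tim_up10* they were 0.82 and -0.77 for *CG17005* and 0.84 and -0.18 for *lncRNA:CR45456*. The log2 values carry a prior count of 2, which narrows differences at the few counts of ZT22.

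Averaged over the 6 time points on the log scale, neither RNA passed the test against *yw* in any deletion strain. On that scale the higher levels by day and the lower levels late at night, where counts were few, offset each other. In CPM the mean of the 6 time points was higher than in *yw* in each deletion strain, which was not tested. For *CG17005* it was 30.5 CPM in *yw* and 39.2 to 48.98 CPM in the deletion strains. For *lncRNA:CR45456* it was 8.66 CPM in *yw* and 14.4 to 16.6 CPM in the deletion strains. For *CG17005* the log2 difference from *yw* was 0.01 (SE 0.15) in *tim_in24*, -0.07 (SE 0.14) in *tim_up10*, -0.27 (SE 0.11) in *tim_up122*, and -0.08 (SE 0.11) in *tim_up126*. For *lncRNA:CR45456* it was 0.47 (SE 0.21), 0.35 (SE 0.23), 0.10 (SE 0.21), and 0.25 (SE 0.19). With edgeR 0 of these 8 were called, 2 had an unadjusted p under 0.05, and DESeq2 also called 0. The lowest adjusted p were 0.0775 (*CG17005* in *tim_up122*) and 0.117 (*lncRNA:CR45456* in *tim_in24*). Of all genes, 25.5%, 23.4%, 26.2%, and 25.4% were called either way in *tim_in24*, *tim_up10*, *tim_up122*, and *tim_up126*. The lowest exact permutation p was 0.0329 (*lncRNA:CR45456* in *tim_in24*, adjusted p = 0.263 over 8 tests).

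The level result depended on the model. A model with genotype and time point as additive terms, which fits 1 shift for the whole day, called *lncRNA:CR45456* higher in all 4 deletion strains, by 0.88, 0.71, 0.71, and 0.78 (adjusted p from 0.000106 to 0.00669), and *CG17005* in none. With no filter on low counts, *lncRNA:CR45456* passed in *tim_in24* (0.47, adjusted p = 0.0481) and *CG17005* in *tim_up122* (-0.27, adjusted p = 0.0178), and with library totals *CG17005* passed in *tim_up122* (-0.31, adjusted p = 0.0364). *CG17005* in *tim_up122* also passed without *tim_up122* ZT14 replicate 2, *tim_up122* ZT6 replicate 1, or *yw* ZT6 replicate 2 (-0.36, -0.31, and -0.31), and *lncRNA:CR45456* in *tim_in24* without *tim_in24* ZT18, *tim_in24* ZT22, or *yw* ZT18 (0.58, 0.70, and 0.58). Without *yw* ZT22 replicate 1 or replicate 2, none of the 8 was called.

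The pair kept nearly parallel levels. Over all 47 libraries the Pearson r of their log2 CPM was 0.97, and each was the other's nearest gene of all tested. Within strains r was 0.99 in *yw* (n = 11), 0.99 in *tim_in24* (n = 6), 0.98 in *tim_up10* (n = 6), 0.97 in *tim_up122* (n = 12), and 0.98 in *tim_up126* (n = 12), and Spearman's rho was 0.98, 1, 1, 0.97, and 0.99. Without the 2 libraries farthest from the median of *CG17005*, r was 0.99, 0.98, 0.96, 0.95, and 0.98. These libraries share the time course and fall into a light and a dark set with no overlap, so the pooled values are a description.

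Within the light or dark libraries r was also taken in the strains with 6 of each. The permutation moved libraries freely across time points, so a small p can come from the shared time course alone. In *tim_up126*, r was 0.95 in the light (permutation p = 0.00694, adjusted p = 0.0139, rho 0.94, p = 0.0167) and 0.90 in the dark (p = 0.0222, adjusted p = 0.0296, rho 0.94, p = 0.0167). In *tim_up122* it was 0.93 in the light (permutation p = 0.00278, adjusted p = 0.0111, rho 0.94, p = 0.0167) and 0.73 in the dark (p = 0.0986, rho 0.83, p = 0.0583). Without the 2 farthest libraries these 4 values of r were 0.89, 0.85, 0.92, and 0.94. These points still include differences between time points, so the p-values do not measure a relation of the pair beyond the time course. Deviations of replicates from the mean of their group correlated with r of 0.75 in *yw* (5 pairs), -0.60 in *tim_up122* (6 pairs), and 0.47 in *tim_up126* (6 pairs), which is given as a description.

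The ratio of the counts of *lncRNA:CR45456* to those of *CG17005* within a library is free of library scaling. In *yw* it ran from 0.153 to 0.341 with a median of 0.265, and in *tim_in24* from 0.247 to 0.424 with a median of 0.375. In *tim_up10* the lowest, median, and highest were 0.263, 0.308, and 0.595, in *tim_up122* 0.143, 0.327, and 0.833, and in *tim_up126* 0.188, 0.324, and 0.552. The median was above that of *yw* in all 4 deletion strains, while the ranges overlapped. The most discordant replicates were those of *tim_up122* at ZT14, with ratios of 0.833 and 0.171.

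On the log2 scale, with 0.5 added to each count, the ratio was higher than in *yw* by 0.44 in *tim_in24* and 0.42 in *tim_up10* (exact permutation within time points, two-sided, adjusted p = 0.0154 each over 5 comparisons). It was 0.34 higher in *tim_up122* (adjusted p = 0.135) and 0.30 higher in *tim_up126* (adjusted p = 0.0972), and did not pass. *tim_up126* minus *tim_up122* was -0.04 (adjusted p = 0.861). The calls in *tim_in24* and *tim_up10* held with any single library left out, including either *yw* ZT22 library (0.41 and 0.38 without replicate 1), but the difference in *tim_up10* fell to 0.27 without its ZT14 library (adjusted p = 0.0463). These are also the strains where the summed photoreceptor genes (*tim_in24*, 37223 to 42092 CPM) and fat body genes (*tim_up10*, 9810 to 12957 CPM) did not overlap *yw*, whose part in the ratio was not tested. With 2 added to each count both larger deletions passed too (0.39 and 0.34, adjusted p = 0.0434 each). An added constant raises this ratio most where counts are few, as at night in the deletion strains. At ZT22 the counts of lncRNA and *CG17005* were 1 and 4 in *tim_up126* replicate 2, and 17 and 111 in *yw* replicate 1. A difference from *yw* can therefore grow through the constant alone, and to a lesser degree with 0.5 added. *tim_up122* also passed without *tim_up122* ZT14 replicate 2 (0.52, adjusted p = 0.0174), and *tim_up126* without *yw* ZT18 (0.36, adjusted p = 0.0450) or without its own ZT2, ZT14, or ZT18 replicate 1 (0.34, 0.39, and 0.36, adjusted p from 0.0225 to 0.0450).

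Within the deletion strains the ratio differed between time points of the light phase, which is a description, since these time points were picked after the ratios were seen. At ZT2 the mean ratio was 0.247, 0.285, 0.280, and 0.221 in *tim_in24*, *tim_up10*, *tim_up122*, and *tim_up126*, and at ZT10 it was 0.424, 0.378, 0.440, and 0.356. On the log2 scale it was higher at ZT6 than at ZT2 by 0.52, and higher at ZT10 than at ZT2 by 0.63, each in 4 of 4 strains. At ZT14 the mean ratio was 0.405, 0.595, 0.502, and 0.409 in the same order. The value of *tim_up122* there rests on 1 library at 0.833, and its mean log2 ratio was lower at ZT14 (-1.38) than at ZT10 (-1.18). In *yw* the mean ratio was also higher at ZT6 (0.325) than at ZT2 (0.248), and it was 0.269 at ZT10 and 0.268 at ZT14.

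**Figure D3:**
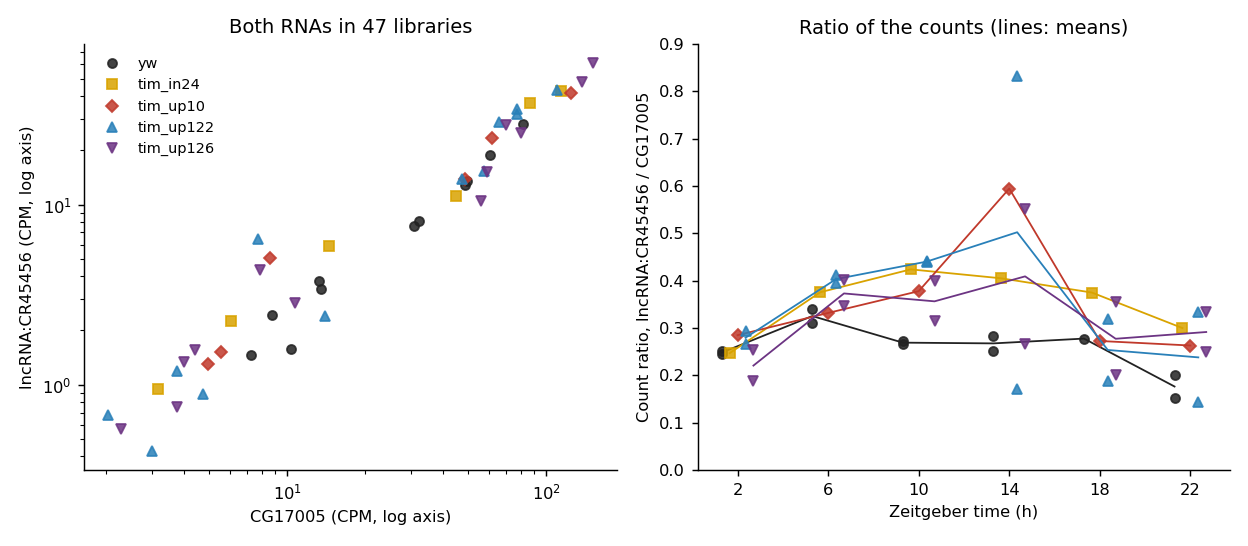
Left, level of *lncRNA:CR45456* against that of *CG17005* (CPM, log axes) in the 47 libraries, 1 symbol per strain. Right, ratio of the counts of *lncRNA:CR45456* to those of *CG17005* by Zeitgeber time (h), with 1 point per library and lines through the means, where the highest value (0.833) is *tim_up122* at ZT14.

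The locus held other rhythmic transcripts. *lncRNA:CR45457*, between the pair, had 18.3 and 11.7 CPM at ZT6 in *yw* and means of 23.2 to 30.2 CPM at ZT6 in the deletion strains, against 0.762 to 1.04 CPM at ZT22. It was rhythmic in 4 of 4 deletion strains (adjusted p from 8.04e-09 to 8.47e-05, edgeR), with amplitudes of 2.44 to 2.48 and, in *yw*, 2.12. Its level over the day was higher than in *yw* by 0.81 in *tim_up126* (adjusted p = 0.0487), a call lost with library totals, with scaling to *RpL32*, and in 19 of 23 fits with 1 library left out, and it did not pass in the other strains. In *tim_in24* (0.85, adjusted p = 0.0845) it passed with DESeq2 (adjusted p = 0.0468) with no filter (adjusted p = 0.00581), and in a fit of *yw* and *tim_in24* alone (adjusted p = 0.0182). In *tim_up122* (0.69, adjusted p = 0.0887) it passed with no filter (adjusted p = 0.0104), and under the additive model all 4 strains passed (0.80 to 0.99). Leaving out 1 library made the call in 3 of 17 fits for *tim_in24* and 4 of 23 for *tim_up122*.

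*Cks30A* (FBgn0010314), which encodes a Cks protein, a small partner of cyclin-dependent kinases, starts 430 bp after the end of *CG17005* on the same strand. Its lowest, median, and highest levels were 0.729, 2.37, and 8.45 CPM in *yw*, and its highest library had 32.7 CPM in *tim_in24*, 24.3 in *tim_up10*, 26.9 in *tim_up122*, and 23.5 in *tim_up126*. It peaked at ZT6 in all 5 strains by mean CPM. It was rhythmic in 4 of 4 deletion strains (adjusted p from 3.94e-06 to 0.00134), with amplitudes of 2.03, 2.56, 1.99, and 1.94 and, in *yw*, 1.04. In mean CPM over the day the pair was above *yw* in each deletion strain, which was not tested. Averaged over the day on the log scale, where the pair did not pass, *Cks30A* was higher than in *yw* in each deletion strain (edgeR). The difference was 2.01 (SE 0.22, adjusted p = 1.46e-07) in *tim_in24*, 1.45 (SE 0.31, adjusted p = 0.000995) in *tim_up10*, 1.48 (SE 0.21, adjusted p = 4.70e-06) in *tim_up122*, and 1.40 (SE 0.20, adjusted p = 9.44e-06) in *tim_up126*. All of these calls held under each alternative and with any single library left out.

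The rhythm did not extend evenly along the arm. The third called neighbour, *lncRNA:CR42844*, 20837 bp before *lncRNA:CR45456* and on the minus strand, passed in *tim_up10*, *tim_up122*, and *tim_up126* (adjusted p = 0.0328, 0.0229, and 0.00288) but rested on 0 to 31 counts per library. Its call in *tim_up10* was lost with DESeq2 and without any of 5 of the 6 libraries, and that in *tim_up122* with time point as a factor and without ZT18 replicate 1, ZT18 replicate 2, or ZT6 replicate 1, while *tim_in24* was called only without its ZT2 library. *Ggamma30A*, a G protein gamma subunit of the visual cascade, *Eaat1*, a glutamate transporter of glia, *Shawl*, annotated as a potassium channel gene, and *borr*, which encodes a protein of the chromosomal passenger complex, were called in no deletion strain. Of the 7 neighbours, 2 were called in *yw*, 2 in *tim_in24*, and 3 in each other strain.

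**Figure D4:**
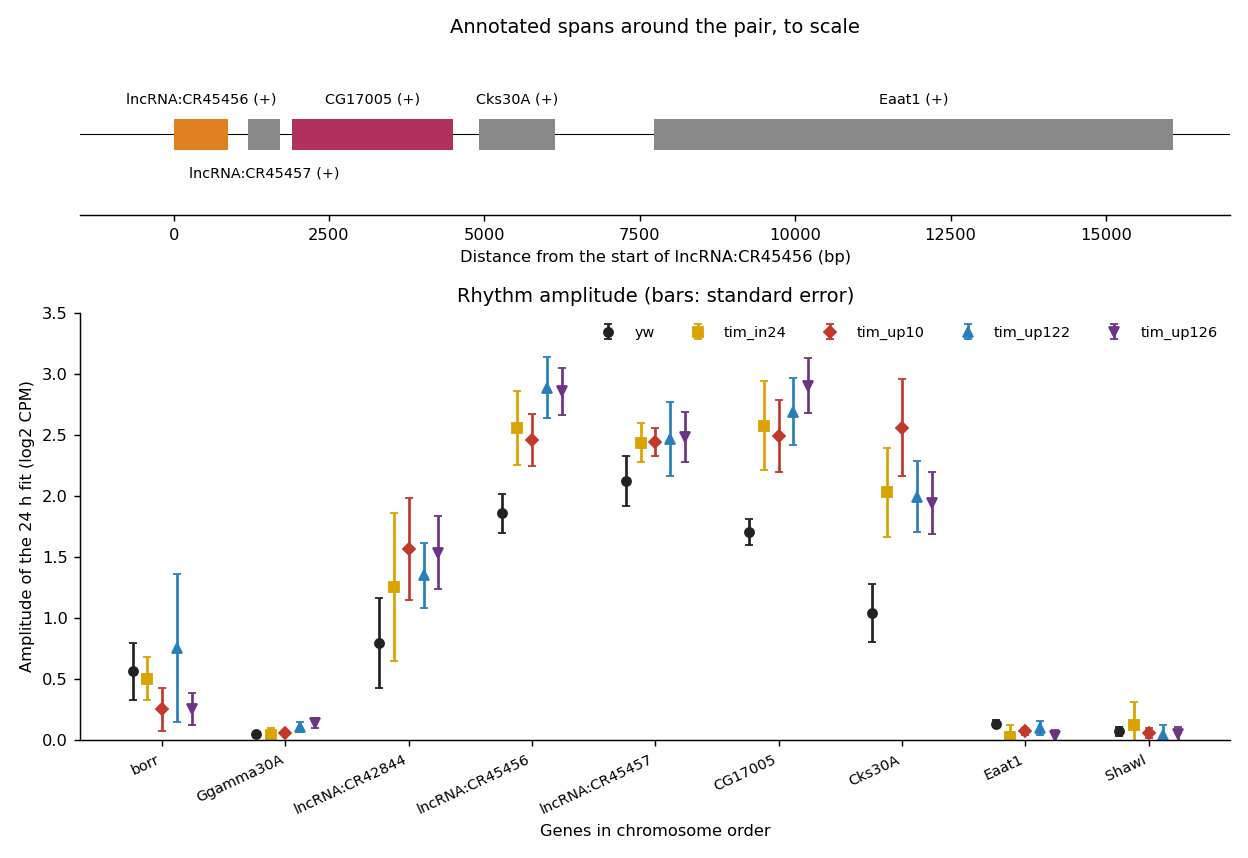
Top, annotated spans around the pair to scale, as distance (bp) from the start of *lncRNA:CR45456*. Bottom, amplitude of the 24 h fit (log2 CPM, bars showing the standard error) of the pair and the 7 neighbours tested in the 5 strains, where *lncRNA:CR45456*, *lncRNA:CR45457*, *CG17005*, and *Cks30A* have amplitudes of 1.94 to 2.90 in the deletion strains and *Eaat1*, 3234 bp beyond *CG17005*, has at most 0.10 there.

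Elsewhere in the genome, the genes most alike by Pearson r of log2 CPM over the 47 libraries were, for *CG17005*, *lncRNA:CR45457* (0.96), *kra* (0.88), *Vinc* (0.87), *CG11210* (0.85), and *Hr38* (0.85). For *lncRNA:CR45456* they were *lncRNA:CR45457* (0.96), *Vinc* (0.89), *kra* (0.86), *Cks30A* (0.86), and *Xrp1* (0.85). *Vinc* encodes vinculin, an adhesion protein, *Hr38* a nuclear receptor induced by neuronal activity, and *Xrp1* a transcription factor of stress responses. The 5 of these outside the locus had fitted peaks from ZT4.74 to ZT8.26 and smaller amplitudes than the pair, 0.24 to 0.55 in *yw* and 0.19 to 1.04 in the deletion strains. The libraries share the time course, so these correlations are a description.

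Of 9 clock genes, the list set beside the pair, 8 were called rhythmic in *yw*, 6 in *tim_in24*, 7 in *tim_up10*, 8 in *tim_up122*, and 6 in *tim_up126*. The amplitude of *tim* was 2.05 in *yw*, 1.44 in *tim_in24*, 1.45 in *tim_up10*, 1.05 in *tim_up122*, and 0.60 in *tim_up126*, and that of *per*, its partner in repression, was 1.49, 1.73, 1.31, 0.76, and 0.55. In *tim_up126* against *tim_up10*, rhythms of *tim*, *per*, and *vri*, a repressor of *Clk*, differed (adjusted p = 0.00930, 6.46e-06, and 4.89e-05, edgeR), with the smaller amplitude in *tim_up126*. The other 6 clock genes did not pass in that comparison (adjusted p from 0.742 to 1), and neither did the pair. *tim* peaked at ZT14.3 to ZT16.4 in the 5 strains and *cry* at ZT2.52 to ZT4.91, on either side of the pair's ZT6.48 to ZT7.75. The level of *tim* over the day differed from *yw* by -0.06 in *tim_in24*, -0.88 in *tim_up10*, -1.05 in *tim_up122*, and -2.20 in *tim_up126*. The amplitudes of the pair were 1.70 and 1.86 in *yw* and 2.46 to 2.90 in the deletion strains. A relation of these amplitudes to the level of *tim* was not tested.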

How the data were processed

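The authors deposited whole-number counts per gene for 47 libraries, aligned to dm6. The sources differ on the tools, STAR and featureCounts in the labels and Tophat and ESAT in the paper, and versions and strand setting are not given in the sources used here. If only transcript ends were counted, levels per kb are not comparable. A second deposited table, the same counts divided by 1 factor per library, was not used. No column was left unused (0), and chromatin data were not analysed here.

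Tests were run on the counts in edgeR 4.0.16 under R 4.3.3, with filterByExpr, TMM factors, the quasi-likelihood test, Benjamini-Hochberg adjustment over 11027 genes, and a threshold of 0.05. Rhythms were a cosine and a sine of 24 h within 1 strain. Rises and levels came from 1 model of all libraries with a coefficient for each group. Amplitudes and phases were fitted by least squares to log2 CPM (prior count 2), with intervals from the standard errors of both fits. Exact permutations moved strain labels within time points. A floor of 3 counts was set for groups with no signal and was not applied. Every group of the pair had counts, with the lowest mean, 3 counts, for *lncRNA:CR45456* in *tim_up122* at ZT22. The steps were tested on simulated data. Gene models came from Ensembl release 115. Of the genes listed, 734 had no count.

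Groups follow the labelled genotype and time point. The pair, the gene lists, and the tests were chosen with earlier results of these data known. Genes named are the pair, 9 clock genes, the 3 nearest genes tested on each side with any gene between, and for each member the 5 genes with the highest correlation. Alternatives were median-of-ratios size factors, library totals, scaling to *RpL32*, DESeq2 1.42.0, other filters, a replicate block, time point as a factor, an additive model, prior counts, linear CPM, and each library left out. No sequence was read, and promoter motifs were not searched.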

Additional observations from a re-analysis of the deposited data

How the results depend on the processing

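The rhythm calls and the rises of the pair in the deletion strains kept their direction and their call under all alternatives, and no rhythm difference between deletion strains passed edgeR's test under any. What changed for the pair were differences and levels that did not pass in the first place, and the cause was not tested. Not all of these were near the threshold (*lncRNA:CR45456* level in *tim_up122*, adjusted p = 0.809, edgeR). Among the neighbours, rhythm calls of *lncRNA:CR42844* and level calls of *lncRNA:CR45457* also changed, as given earlier. As relative amplitudes on linear CPM, 3 amplitude differences turned sign: *CG17005* in *tim_up122* minus *tim_in24* (-0.025) and minus *tim_up10* (-0.078), and *lncRNA:CR45456* in *tim_up126* minus *tim_up122* (0.11). For the level over the day against *yw*, *CG17005* in *tim_in24* turned to -0.063 with library totals and -0.26 with scaling to *RpL32*. The additive model turned *CG17005* to 0.20, 0.11, and 0.35 in *tim_up10*, *tim_up122*, and *tim_up126*, none of them called, and called *lncRNA:CR45456* in all 4 strains (0.88 in *tim_in24*, 0.71 in *tim_up10*, 0.71 in *tim_up122*, 0.78 in *tim_up126*). Without a filter *lncRNA:CR45456* in *tim_in24* (0.47) and *CG17005* in *tim_up122* (-0.27) passed, and with library totals the latter (-0.31). With 2 added to each count the ratio passed in *tim_up122* (0.39) and *tim_up126* (0.34), a setting that raises the ratio most where counts are few.

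With 1 library left out at a time, amplitude differences of *CG17005* ran from -0.25 to 0.47 (*tim_up122* minus *tim_in24*), -0.19 to 0.39 (*tim_up122* minus *tim_up10*), -0.036 to 0.68 (*tim_up126* minus *tim_in24*), and 0.024 to 0.61 (*tim_up126* minus *tim_up10*). Those of *lncRNA:CR45456* ran from -0.026 to 0.64 (*tim_up122* minus *tim_in24*), -0.057 to 0.61 (*tim_up126* minus *tim_in24*), and -0.17 to 0.15 (*tim_up126* minus *tim_up122*). Phase differences of *CG17005* ran from -0.84 to 0.22 h (*tim_up122* minus *tim_in24*), -1.11 to -0.048 h (*tim_up126* minus *tim_in24*), and -0.094 to 0.69 h (*tim_up126* minus *tim_up10*). Those of *lncRNA:CR45456* ran from -0.10 to 0.53 h (*tim_up122* minus *tim_up10*), -1.01 to -0.35 h (*tim_up126* minus *tim_in24*), and -0.35 to 0.28 h (*tim_up126* minus *tim_up10*). Levels of *CG17005* against *yw* ran from -0.15 to 0.32 in *tim_in24*, -0.25 to 0.093 in *tim_up10*, -0.36 to -0.11 in *tim_up122*, and -0.18 to 0.12 in *tim_up126*, and those of *lncRNA:CR45456* from 0.27 to 0.70 in *tim_in24*, 0.24 to 0.55 in *tim_up10*, -0.046 to 0.34 in *tim_up122*, and 0.088 to 0.50 in *tim_up126* (lowest without *tim_up126* ZT22 replicate 1, highest without *yw* ZT18). The ratio against *yw* ran from 0.37 to 0.53 in *tim_in24*, 0.27 to 0.50 in *tim_up10*, 0.15 to 0.52 in *tim_up122*, and 0.21 to 0.39 in *tim_up126*, and between these strains (*tim_up126* minus *tim_up122*) from -0.22 to 0.15.

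Replicate numbers were shared between strains but did not pair libraries across strains: deviations of same-numbered libraries at the same time in other strains correlated with r from -0.13 to 0.087, and 0 of 16 were over 0.1. Within a strain, those at other times correlated with r from -0.20 to 0.32 (median 0.065), and 17 of 40 were over 0.1. For other strains at other times, 8 of 80 were over 0.1. The main tests took all libraries as independent. With a replicate block, *CG17005* rose by 5.37 and *lncRNA:CR45456* by 5.56 in *tim_up126*, the level of *CG17005* against *yw* was -0.26 in *tim_up122* (adjusted p = 0.0897), and no call of the pair changed. Depth limited the lncRNA most, with 1 or 2 counts in the poorest libraries at night.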
